A study of Rattus norvegicus with 24 samples.

Results

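Interferon-induced genes are a set of 38 genes that cells switch on in response to interferon, from the transcription factors of the pathway to antiviral effectors and the class I antigen presentation machinery. They were described in RNA sequencing of tissue punches from 2 rat brain regions, the ventral tegmental area (VTA) and the nucleus accumbens (NAC). The rows were chosen by gene symbol, and 37 of the 38 symbols were found among the 37403 genes of each table. Samd9l was not found by its symbol. RefSeq lists that name as a synonym of Samd9l1, whose values are given apart.

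The punches came from F1 male rats of at least 60 days of age. Over 60 days their fathers had self-administered morphine (offspring called MOR-sired) or saline (offspring called SAL-sired), so the drug was given to the fathers and the labels name no treatment of the offspring themselves. The VTA is represented by 5 MOR-sired and 5 SAL-sired libraries, and the NAC by 7 MOR-sired and 7 SAL-sired ones. Dopamine neurons of the VTA project to the NAC, which is the ventral part of the striatum. No strain is named in the labels, which number biological replicates but name neither animals nor litters, so a p-value here measures the spread between these libraries.

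Type I interferons bind a receptor that activates JAK1 and TYK2, which act on STAT2. STAT2 takes part with IRF9 in a complex that binds the interferon-stimulated response element in the promoters of many of the genes described here. In brain, microglia, endothelial cells and astrocytes as well as neurons can carry this programme, and a low level is found without infection. A punch mixes all these cells, so fewer cells of a type and less RNA per cell cannot be told apart in what follows.

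Library totals ran from 23.6 to 43.5 M estimated counts in VTA and from 21.9 to 41.3 M in NAC, where M stands for 1e6. Levels are in CPM, counts per M counts of a library. The authors scaled transcript abundances to the library total, per the file names, so CPM can be compared between genes as a level per transcript length. The dopamine neuron markers Th, Slc6a3, Slc18a2 and Ddc summed to between 2909 and 6588 CPM in VTA libraries and between 10.7 and 16.6 CPM in NAC libraries. In 4 VTA libraries (3, 4 and 5 of the MOR-sired and 5 of the SAL-sired group) the inactive X transcript Xist had 78.9 to 108 CPM, and Ddx3y of the Y chromosome had at most 0.072 CPM, which goes against the male label. MOR-sired VTA 2 also stood apart: it was the lowest VTA library for 53.8% of all genes with a mean of at least 1 CPM and for 21 of the 37 interferon-induced genes.

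No interferon-induced gene differed between sire groups beyond adjustment, and the module's level in the VTA turned on 1 library. MOR-sired VTA 3 held the highest VTA value for 35 of the 37 genes (94.6%), while 6.94% of all genes with a mean of at least 1 CPM were highest there. In that library 12 of the 37 lay at least 2 times above the median of the other 9 VTA libraries, which 1.4% of all genes did. Both exceptions were still above the median of the others: Eif2ak2 had 20.4 CPM there, against 21.3 CPM in SAL-sired VTA 3, and Trim25 had 5.50 CPM, against 5.56 CPM in SAL-sired VTA 2. With TMM-scaled CPM, which corrects for composition, the library was highest for 36 of the 37 genes and for 12.4% of all genes. These counts describe 1 library found in the data and carry no test.

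**Figure D1:**
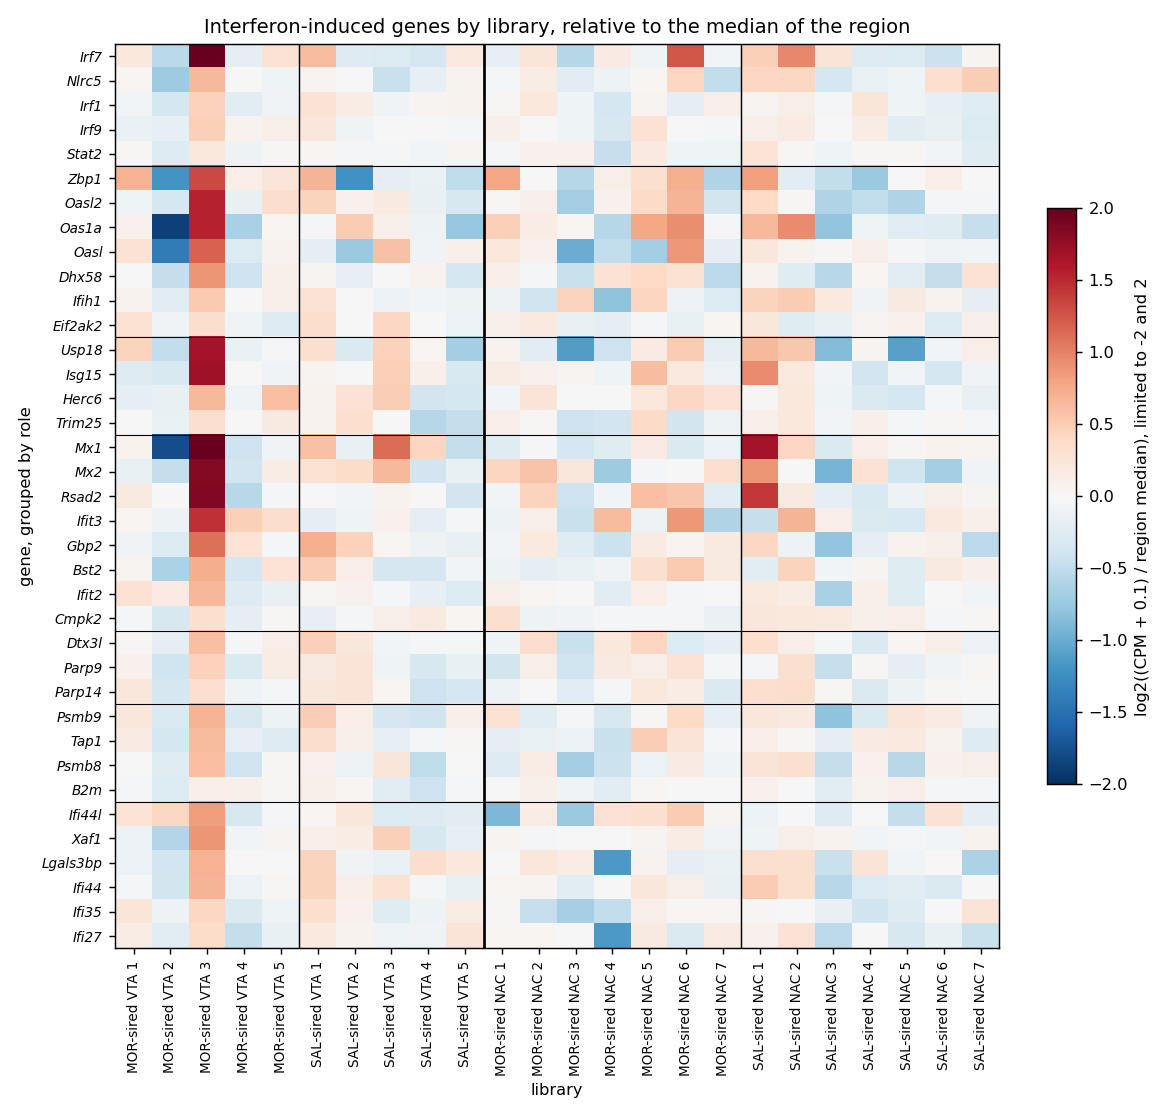
Heat map of the 37 genes (rows, grouped by role) in the 24 libraries (columns). Color is the log2 ratio of CPM + 0.1 to the median of the region, limited to -2 and 2. MOR-sired VTA 3 is above the median in every row, with Mx1 at 14.4 times the median of the other VTA libraries.

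The mean over the 37 genes of log2(CPM + 1), called the module level, was 3.59 in MOR-sired VTA 3 and between 2.56 and 3.02 in the other 9 VTA libraries. It averaged 2.92 ± 0.398 in MOR-sired and 2.85 ± 0.123 in SAL-sired VTA (SD, n = 5 each). Without MOR-sired VTA 3 the MOR-sired average was 2.75, so the difference of MOR-sired minus SAL-sired VTA was 0.07 with all libraries and -0.10 without it. The other 3 libraries with Xist had module levels of 2.70 (MOR-sired VTA 4), 2.87 (MOR-sired VTA 5) and 2.73 (SAL-sired VTA 5), within the range of the libraries without Xist. MOR-sired VTA 3 also had the largest total, 43.5 M, and the part of depth or of sex-linked transcripts in its level was not tested. The VTA libraries of over 30 M counts were libraries 3, 4 and 5 of each sire group. Among them the difference was 0.27 with MOR-sired VTA 3 and 0.0036 without it. Their MOR-sired members are also the MOR-sired libraries with Xist, so in that group depth and sex-linked transcripts cannot be told apart. Those under 30 M were libraries 1 and 2 of each sire group, among them MOR-sired VTA 2. Their difference was -0.23. The module level uses plain CPM. Scaled by total counts, the median log2 fold change of all VTA genes was -0.09, against -0.0065 with TMM factors. With TMM factors the median log2 fold change of the set was 0.16 with all libraries and -0.02 without MOR-sired VTA 3.

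**Figure D2:**
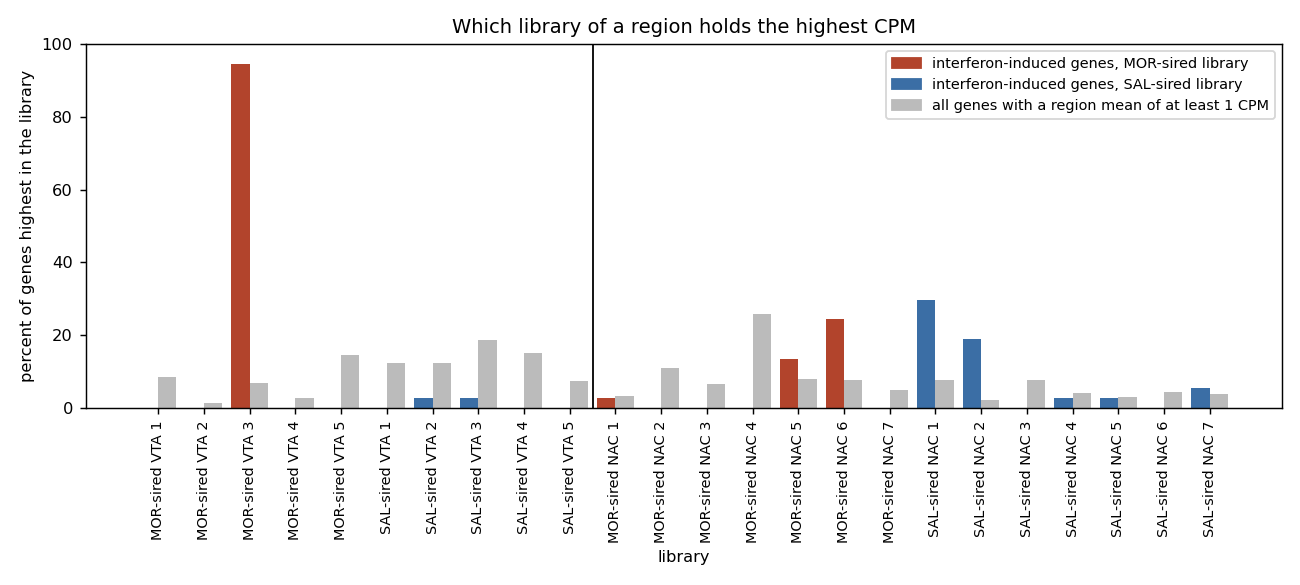
Percent of the 37 interferon-induced genes (coloured bars) and of all genes with a mean of at least 1 CPM in the region (grey bars) for which each library holds the highest CPM of its region. MOR-sired VTA 3 reaches 94.6% of the interferon-induced genes against 6.94% of all genes. In NAC the highest values are spread over several libraries.

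The promoters of the genes were read for the element that the complex with IRF9 binds. A pattern for the interferon-stimulated response element, the letters GAAA, then any 2 letters, then GAAA again, on either strand, was searched in RefSeq windows of the GRCr8 assembly that run from 250 bases before to 50 bases after each gene's start. Of the 37 genes, 30 had such a window, and 19 of these (63.3%) held the pattern, against 4.12% of the 27457 genes with a window. Of the genes whose values are given in full, 7 held a match, and the windows of the 4 with the highest ratio in MOR-sired VTA 3 are shown, so their ratios are high by choice. They are written 5′ to 3′ on the gene's strand, and capitals mark the fixed letters of the pattern. Irf7 (chr1:205799974-205800273, minus strand) has it 69 bases before the gene start, Rsad2 (chr6:48788071-48788370, minus strand) 147 bases, Ifit3 (chr1:241527076-241527375, plus strand) 44 bases and Ifih1 (chr3:67683919-67684218, minus strand) 59 bases before it.
Irf7: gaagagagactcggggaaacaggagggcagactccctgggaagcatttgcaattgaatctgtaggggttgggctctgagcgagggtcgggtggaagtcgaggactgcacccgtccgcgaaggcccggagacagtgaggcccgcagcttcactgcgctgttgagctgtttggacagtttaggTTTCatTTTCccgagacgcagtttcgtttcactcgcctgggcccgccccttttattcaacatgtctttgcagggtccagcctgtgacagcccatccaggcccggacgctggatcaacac
Rsad2: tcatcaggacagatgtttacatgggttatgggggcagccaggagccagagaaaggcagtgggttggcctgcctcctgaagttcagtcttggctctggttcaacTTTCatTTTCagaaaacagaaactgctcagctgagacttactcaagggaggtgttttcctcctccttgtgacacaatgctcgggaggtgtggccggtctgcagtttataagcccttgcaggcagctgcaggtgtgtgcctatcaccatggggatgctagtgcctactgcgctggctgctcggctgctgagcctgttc
Ifit3: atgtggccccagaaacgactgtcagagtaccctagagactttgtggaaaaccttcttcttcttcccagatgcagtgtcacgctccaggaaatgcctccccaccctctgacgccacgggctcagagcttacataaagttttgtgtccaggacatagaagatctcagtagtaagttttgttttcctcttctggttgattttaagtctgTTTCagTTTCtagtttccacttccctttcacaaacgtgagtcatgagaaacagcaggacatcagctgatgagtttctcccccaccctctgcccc
Ifih1: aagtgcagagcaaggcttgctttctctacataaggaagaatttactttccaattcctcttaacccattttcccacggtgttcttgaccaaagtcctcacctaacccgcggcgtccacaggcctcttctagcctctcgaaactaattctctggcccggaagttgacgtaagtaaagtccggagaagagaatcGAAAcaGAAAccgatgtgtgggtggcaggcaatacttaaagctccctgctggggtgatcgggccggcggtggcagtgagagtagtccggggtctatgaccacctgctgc
In 3 of the 4 windows the match reads TTTC, 2 letters and TTTC, so that the pattern lies on the opposite strand. MOR-sired VTA 3 lay 4.59 times above the median of the other VTA libraries for Irf7, 3.84 times for Rsad2, 2.93 times for Ifit3 and 1.47 times for Ifih1. The 3 windows with a match that are not shown had lower ratios, 1.35 for Ifi27, 1.29 for Eif2ak2 and 1.12 for B2m. Over the genes with the pattern the median of that ratio was 1.63 (19 genes, 1.12 to 4.59), and over those without it 1.43 (11 genes, 1.17 to 14.4). Genes without a window are in neither median: Mx2 (ratio 3.98), Zbp1 (3.81), Usp18 (3.34), Isg15 (3.26), Dhx58 (1.87), Ifit2 (1.63) and Nlrc5 (1.62). Mx1, the gene with the highest ratio, had no match in its window. Only this 1 pattern was searched, so an element of another spelling or outside the window would be missed. The windows of Tap1 and Psmb9 overlap on chromosome 20, with Tap1 on the minus and Psmb9 on the plus strand.

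The transcription factors were Irf7, Irf9, Irf1, Stat2 and Nlrc5. IRF7 drives the type I interferon genes and is itself induced by interferon. Irf7 had 4.93, 2.91, 17.0, 3.70 and 5.27 CPM in MOR-sired VTA 1 to 5, against 6.61, 3.54, 3.50, 3.34 and 4.89 CPM in SAL-sired VTA 1 to 5. Apart from MOR-sired VTA 3 the groups overlapped, and the MOR-sired mean was 6.76 ± 5.81 CPM with that library and 4.20 ± 1.10 CPM without it (SD, n = 5 and n = 4), against 4.38 ± 1.39 CPM in SAL-sired VTA (n = 5). The edgeR fold was 1.62 (95% interval 0.82 to 3.18) with all libraries, and 1.02 without MOR-sired VTA 3.

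Stat2, the STAT protein particular to the type I and III responses, was the most abundant factor of the set. Its VTA values were 35.7, 29.3, 40.7, 32.7 and 35.6 CPM in MOR-sired and 36.3, 34.3, 34.7, 33.8 and 36.5 CPM in SAL-sired libraries. The SAL-sired values lay inside the MOR-sired range, and the fold was 1.05 (0.96 to 1.15). Irf9, the DNA-binding partner of the STAT pair, reached 22.8 CPM in MOR-sired VTA 3 against 14.5 to 19.2 CPM in the other VTA libraries. Irf1, an early interferon gamma target, reached 8.41 CPM there and 4.72 to 7.48 CPM elsewhere. Nlrc5, the transactivator of class I genes, reached 2.57 CPM there and 0.935 to 1.68 CPM elsewhere.

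The 7 sensors of foreign nucleic acid were Ifih1, Dhx58, Zbp1, Eif2ak2, Oas1a, Oasl and Oasl2, and 6 of them were highest in MOR-sired VTA 3. Ifih1 encodes MDA5, which binds long double-stranded RNA. It had 2.95, 2.39, 4.07, 2.84 and 3.05 CPM in MOR-sired VTA, against 3.47, 2.78, 2.58, 2.70 and 2.61 CPM in SAL-sired VTA. The groups overlapped, with 1 high library in each. Eif2ak2 encodes PKR, a kinase that halts translation on binding double-stranded RNA, and was the most abundant sensor. Its values were 19.8, 15.2, 20.4, 15.1 and 13.3 CPM in MOR-sired and 20.5, 15.8, 21.3, 16.2 and 14.8 CPM in SAL-sired VTA, 2 ranges that overlap almost wholly.

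The 2'-5' oligoadenylate synthetase family stood further out. In MOR-sired VTA 3 Oasl2 reached 11.1 CPM against a next highest value of 5.11 CPM, Oas1a 6.42 against 3.06 CPM and Oasl 1.17 against 0.734 CPM. Oas1a has close copies, among them Oas1b, and how the authors' estimates divided reads between such copies is not given, so their single levels are uncertain. Dhx58, which encodes LGP2, reached 7.48 against 4.31 CPM. Zbp1, a sensor of Z-form nucleic acid, was the least abundant gene of the set, at 0.624 CPM in that library and at most 0.368 CPM in the other VTA libraries, and it passed the filter on low counts in neither region.

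ISG15 is a ubiquitin-like protein that is attached to other proteins and removed by USP18. Isg15 had 7.61, 7.42, 29.7, 9.18 and 8.70 CPM in MOR-sired VTA, against 9.50, 9.09, 12.7, 9.81 and 7.37 CPM in SAL-sired VTA. One MOR-sired value lay above all others, and the remaining 4 lay within the SAL-sired range: the mean was 12.5 ± 9.62 CPM with it and 8.23 ± 0.851 CPM without it, against 9.70 ± 1.94 CPM in SAL-sired VTA (SD, n = 5, 4 and 5). Usp18 reached 9.57 CPM in MOR-sired VTA 3 and at most 4.08 CPM elsewhere in VTA. Herc6 encodes the main ligase for ISG15 in mouse, and Trim25 a ligase that acts on the RNA sensor RIG-I.

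For Herc6 a second MOR-sired library came close. It had 3.92, 4.02, 7.02, 4.23 and 6.81 CPM in MOR-sired VTA, against 4.71, 5.50, 6.30, 3.43 and 3.47 CPM in SAL-sired VTA. MOR-sired VTA 5 nearly equalled MOR-sired VTA 3, and the groups overlapped. Trim25 gave 4.40, 4.00, 5.50, 4.34 and 4.98 CPM in MOR-sired and 4.60, 5.56, 4.37, 2.93 and 3.14 CPM in SAL-sired VTA, with the 2 lowest values both SAL-sired.

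The 8 antiviral effectors included the gene with the highest ratio in MOR-sired VTA 3. Their ratios ran from 1.27 to 14.4 with a median of 2.59, against a median of 2.70 for the sensors. Mx1 encodes a dynamin-like GTPase that blocks virus replication. It had 0.965, 0.199, 12.6, 0.669 and 0.876 CPM in MOR-sired VTA, against 1.43, 0.816, 2.11, 1.27 and 0.635 CPM in SAL-sired VTA. Of the 5 MOR-sired values, 4 were below 1 CPM and the fifth was the highest by far, 14.4 times the median of the other 9 libraries. The MOR-sired mean was 3.06 ± 5.33 CPM with that library and 0.677 ± 0.342 CPM without it, against 1.25 ± 0.580 CPM in SAL-sired VTA (SD, n = 5, 4 and 5). The edgeR log2 fold change was 1.34 ± 0.94 (SE) with all libraries and -0.80 ± 0.42 without MOR-sired VTA 3, so its sign depended on that library. Its relative Mx2 reached 42.1 CPM there and at most 18.3 CPM in the other VTA libraries.

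Rsad2 encodes viperin, which makes a chain-terminating nucleotide. Its levels were 1.60, 1.38, 5.31, 0.918 and 1.37 CPM in MOR-sired VTA, against 1.41, 1.34, 1.47, 1.41 and 1.06 CPM in SAL-sired VTA. Again a single MOR-sired value stood out, and the log2 fold change was 0.75 ± 0.42 (SE) with it and 0.09 ± 0.19 without it. Cmpk2, a nucleotide kinase that neighbours Rsad2 on chromosome 6, did not share the size of that excess. It had 21.6, 17.9, 28.1, 19.6 and 22.6 CPM in MOR-sired VTA, against 19.9, 22.0, 24.3, 25.6 and 22.9 CPM in SAL-sired VTA, so that its highest library lay 1.27 times above the median of the others, against 3.84 times for Rsad2.

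Ifit3 and Ifit2 encode tetratricopeptide proteins, of which IFIT2 binds viral RNA and IFIT3 stabilises its partners. Ifit3 was the gene of the set with the smallest VTA p. It had 2.54, 2.28, 7.00, 3.47 and 3.17 CPM in MOR-sired VTA, against 2.16, 2.32, 2.62, 2.13 and 2.39 CPM in SAL-sired VTA. All but 2 of the MOR-sired values lay above every SAL-sired one, and the other 2 lay inside the SAL-sired range. The fold was 1.68 (95% interval 1.12 to 2.53), with an unadjusted edgeR quasi-likelihood p of 0.018 and an adjusted p of 0.886 over all genes. Without MOR-sired VTA 3 the fold was 1.32, with an unadjusted edgeR p of 0.0212 and an adjusted p of 0.909. The MOR-sired values above the SAL-sired range were those of MOR-sired VTA 3, 4 and 5, the MOR-sired libraries with Xist. Without the 4 libraries with Xist the fold was 1.17, with an unadjusted edgeR p of 0.252 and an adjusted p of 0.884. That fit leaves only MOR-sired VTA 1 and 2 against SAL-sired VTA 1 to 4, so its higher p also reflects fewer libraries.

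Ifit2 had 7.05, 6.38, 9.03, 4.71 and 5.09 CPM in MOR-sired VTA, against 5.79, 6.05, 5.56, 5.08 and 4.69 CPM in SAL-sired VTA. All but 2 of the MOR-sired values were above the SAL-sired range and the other 2 within it, and the fold was 1.26 (0.97 to 1.65). Without the 4 libraries with Xist it was 1.34, with an unadjusted edgeR p of 0.0124 and an adjusted p of 0.672. Gbp2, a guanylate-binding protein, reached 6.50 CPM in MOR-sired VTA 3 and at most 4.89 CPM elsewhere. Bst2, which encodes the virus tether tetherin, reached 14.9 CPM there and at most 12.6 CPM elsewhere.

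**Figure D3:**
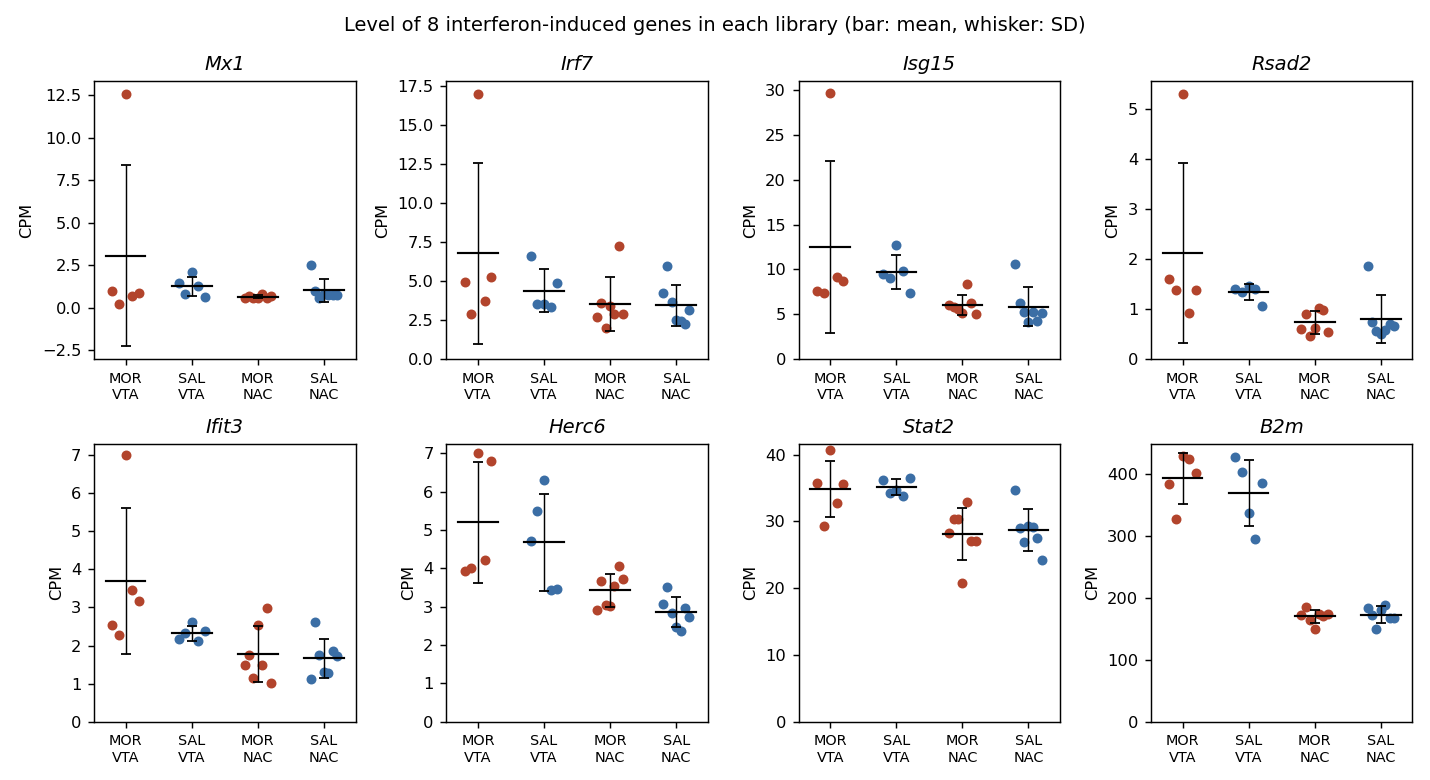
CPM of 8 interferon-induced genes in each library (points), with the mean (bar) and SD (whisker) of the 4 groups; MOR-sired points are red and SAL-sired points blue. One MOR-sired VTA point lifts the mean and SD of Mx1, Irf7, Isg15, Rsad2 and Ifit3. For Stat2 and B2m that library lies only 1.17 and 1.12 times above the median of the other VTA libraries.

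PARP9 and DTX3L form a complex that modifies histones and viral proteins, and PARP14 is a related ADP-ribosyltransferase. Parp9 had 6.81, 4.82, 8.82, 5.23 and 7.11 CPM in MOR-sired VTA, against 7.21, 7.65, 6.00, 5.09 and 5.75 CPM in SAL-sired VTA. The ranges overlapped almost fully apart from the highest value. Dtx3l, whose window lies beside that of Parp9 on chromosome 11 on the opposite strand, reached 4.35 CPM in MOR-sired VTA 3 against 4.01 CPM in the next library. Parp14 reached 3.71 against 3.52 CPM.

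Class I antigen presentation was covered by Psmb8 and Psmb9, subunits of the immunoproteasome, the peptide transporter gene Tap1, and B2m, the light chain of class I molecules. B2m was the most abundant gene of the set. It had 383, 326, 429, 423 and 402 CPM in MOR-sired VTA, against 426, 403, 337, 294 and 385 CPM in SAL-sired VTA. The ranges overlapped, and MOR-sired VTA 3 barely exceeded SAL-sired VTA 1. For Psmb8, Psmb9 and Tap1 that library lay 1.54 to 1.74 times above the median of the other VTA libraries.

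The 6 remaining genes, Ifi44l, Ifi44, Ifi27, Ifi35, Xaf1 and Lgals3bp, were all highest in MOR-sired VTA 3, at 1.35 to 1.96 times the median of the others. Ifi27, which encodes a mitochondrial protein, had 241, 185, 278, 156 and 196 CPM in MOR-sired VTA, against 248, 227, 203, 207 and 258 CPM in SAL-sired VTA. The lowest and the highest values were both MOR-sired. Samd9l1 was not highest in MOR-sired VTA 3, where it had 10.4 CPM, but in SAL-sired VTA 1 with 11.9 CPM.

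Between the sire groups in VTA, edgeR's quasi-likelihood test called 0 of the 36 genes tested at an adjusted p under 0.05, and 0% of all 19923 genes tested. At an unadjusted p under 0.05 there was 1 (Ifit3), against 5.31% of all genes, and DESeq2 and limma-voom with sample quality weights also called 0 of the 36, against 0.136% and 0% of all genes. The fitted log2 fold change was positive for 33 of the 36 with all libraries, against 47.4% of all genes, with a median of 0.16. Without MOR-sired VTA 3 it was positive for 15 of the 36, against 47.8%, with a median of -0.02. Without the 4 libraries with Xist it was positive for 16, against 46.3%. For none of the 37 genes did the 2 sire groups separate completely, with or without MOR-sired VTA 3, against 1.24% and 2.67% of all genes.

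**Figure D4:**
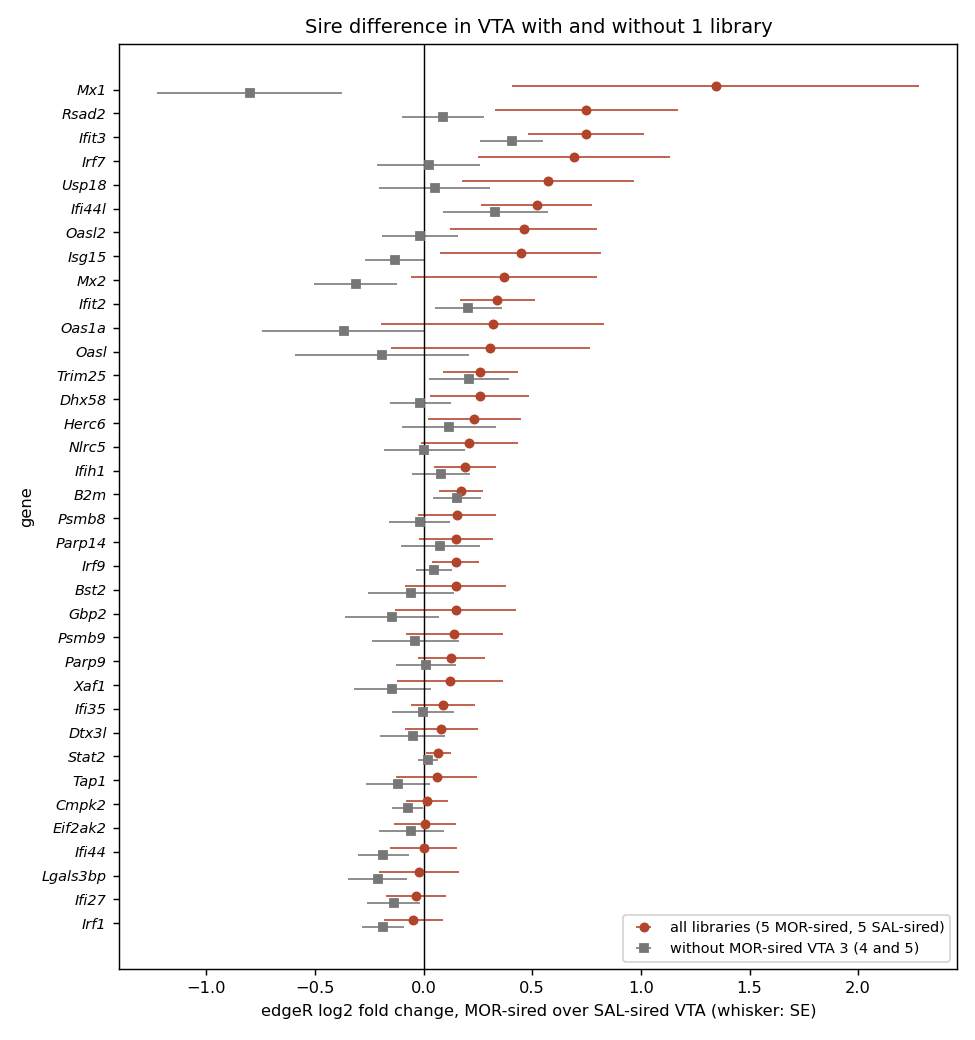
edgeR log2 fold change of MOR-sired over SAL-sired VTA for the 36 genes tested, with its SE, for all libraries (red circles) and without MOR-sired VTA 3 (grey squares). With all libraries 33 of 36 circles lie right of 0, and 15 of 36 squares do; Mx1 has 1.34 as a circle and -0.80 as a square.

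Positive fits were also counted by role, beside 47.8% of all genes without MOR-sired VTA 3 and 47.4% with it. Many fits without that library lay near 0, among them Nlrc5 (0.0037 ± 0.19, SE) and Dhx58 (-0.015 ± 0.14). Whether roles differ was not tested. Without MOR-sired VTA 3 the fitted value was positive for 4 of 5 transcription factors, 1 of 6 tested sensors, 3 of 4 genes of the ISG15 system, 3 of 8 antiviral effectors, 2 of 3 of the PARP9 group, 1 of 4 class I genes and 1 of 6 remaining genes. With that library the counts in the same order were 4, 6, 4, 8, 3, 4 and 4. The spread of the MOR-sired VTA group shows the same library: over the 34 genes with a mean of at least 1 CPM the median coefficient of variation was 30.6% with it and 17.9% without it, against 17.2% in SAL-sired VTA. Over all genes it was 12.6% in MOR-sired and 10.6% in SAL-sired VTA.

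In NAC the 2 sire groups had nearly equal levels. The module level averaged 2.46 ± 0.132 in MOR-sired and 2.46 ± 0.154 in SAL-sired NAC (SD, n = 7 each), with a difference of 0.000965. It was -0.041 among the libraries numbered 1 to 8 and 0.064 among those numbered 9 to 14 in the labels. Numbers 1 to 8 were MOR-sired NAC 1 to 3 and SAL-sired NAC 1 to 5. Numbers 9 to 14 were MOR-sired NAC 4 to 7 and SAL-sired NAC 6 and 7. edgeR called 0 of the 35 genes tested and 0% of all 18220 genes. Zbp1 and Nlrc5 did not pass the filter there. At an unadjusted p under 0.05 there were 2, Herc6 and Mx1, against 6.18% of all genes, and DESeq2 and quality-weighted limma-voom called 0 of the 35, against 0.022% and 0.285% of all genes. A positive log2 fold change was fitted for 18 of the 35, against 49.5% of all genes, with a median of 0.0014. No gene of the set separated the groups completely, against 0.069% of all genes.

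Herc6 ran from 2.92 to 4.07 CPM with a median of 3.54 in MOR-sired NAC, against 2.36 to 3.52 CPM with a median of 2.84 in SAL-sired NAC. The ranges overlapped, and the log2 fold change was 0.25 ± 0.11 (SE), with an unadjusted edgeR quasi-likelihood p of 0.0345 and an adjusted p of 0.756. Mx1 ran from 0.559 to 0.824 CPM with a median of 0.599 in MOR-sired NAC, against 0.574 to 2.53 CPM with a median of 0.764 in SAL-sired NAC. The value of 2.53 CPM belonged to SAL-sired NAC 1, and the next SAL-sired value was 1.00 CPM. The log2 fold change was -0.67 ± 0.30, with an unadjusted edgeR p of 0.0391, and its smallest size was -0.28, in the fit without SAL-sired NAC 1.

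Cmpk2 ran from 14.8 to 20.2 CPM with a median of 15.8 in MOR-sired NAC, against 15.9 to 19.0 CPM with a median of 17.6 in SAL-sired NAC. The highest value of all was MOR-sired although the MOR-sired median was lower, and the fold was 0.906 (0.815 to 1.01). Ifih1 ran from 1.30 to 3.23 CPM in MOR-sired and from 2.03 to 3.39 CPM in SAL-sired NAC. Trim25 ran from 1.95 to 3.49 CPM in MOR-sired and from 2.54 to 3.07 CPM in SAL-sired NAC, so for both the MOR-sired range was the wider. Isg15 ran from 5.01 to 8.36 CPM in MOR-sired and from 4.15 to 10.6 CPM in SAL-sired NAC.

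Irf7 ran from 2.00 to 7.22 CPM in MOR-sired NAC, where MOR-sired NAC 6 was the highest, against 2.22 to 5.96 CPM in SAL-sired NAC. Its MOR-sired mean was 3.52 ± 1.71 CPM with that library and 2.90 ± 0.560 CPM without it, against 3.45 ± 1.32 CPM in SAL-sired NAC (SD, n = 7, 6 and 7). Rsad2 ran from 0.452 to 1.02 CPM in MOR-sired and from 0.498 to 1.86 CPM in SAL-sired NAC, where SAL-sired NAC 1 was again the highest. Of the most abundant gene of each role, Stat2, Eif2ak2, B2m, Ifi27, Parp9 and Isg15 had log2 fold changes between -0.04 and 0.03, and Cmpk2 had -0.14.

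No NAC library held the set as MOR-sired VTA 3 did. MOR-sired NAC 6 was highest for 9 of the 37 genes, against 7.78% of all genes, among them Irf7, Oasl, Oasl2, Herc6 and Ifit3. SAL-sired NAC 1 was highest for 11, against 7.6% of all genes, among them Mx1, Mx2, Rsad2, Isg15 and Usp18. SAL-sired NAC 2 was highest for 7, against 2.17% of all genes, among them Oas1a, Ifih1 and Psmb8. MOR-sired NAC 5 followed with 5. Module levels in NAC ran only from 2.26 to 2.70.

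Whether the sire effect differed between VTA and NAC was tested over all 24 libraries. edgeR called 0 of 36 genes and 0% of 20603 genes in all. At an unadjusted p under 0.05 there was 1 gene of the set, Mx1, against 4.78% of all genes: its log2 fold change was 2.04 ± 0.92 (SE) higher in VTA than in NAC, with an unadjusted edgeR p of 0.0382 and an adjusted p of 1. Mx1 was highest in MOR-sired VTA 3 and in SAL-sired NAC 1 of the 2 regions. Without MOR-sired VTA 3, without SAL-sired NAC 1 or without SAL-sired VTA 4, 0 of the 36 genes had an unadjusted edgeR p under 0.05. The difference was positive for 32 of 36 genes with all libraries, against 49.3% of all genes, and for 16 of 36 without MOR-sired VTA 3.

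Most of the set was higher in VTA than in NAC punches. The median ratio of the VTA to the NAC mean was 1.53 over the 37 genes and 1.02 over all genes with a mean of at least 1 CPM in a region. These VTA means include MOR-sired VTA 3, the highest VTA library for 35 of the 37 genes. Every VTA library lay above every NAC library for 6 of the 37 genes (Nlrc5, Eif2ak2, Ifit2, Parp9, Dtx3l and B2m), against 14.3% of all genes. Every VTA library lay below every NAC library for 0 of the 37, against 14.9% of all genes. Nlrc5 had the largest ratio, with a mean of 1.57 CPM in VTA and 0.338 CPM in NAC. Xaf1 had the smallest, 3.97 CPM in VTA and 5.35 CPM in NAC. These levels come from 2 deposited tables, and the difference in level between the regions was not tested.

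Other genes of the pathway came from lists of 119 found genes outside the set. Of the 10 interferon genes found, none exceeded 0.453 CPM in any library, and Ifna2 and Ifnl3 were at 0 in all of them. In MOR-sired VTA 3 Ifnb1 and Ifng, the genes of interferon beta and gamma, were at 0, and the highest interferon gene was Ifne at 0.196 CPM. Of the 9 receptor chains and kinases, 0 were highest in MOR-sired VTA 3, against 6.94% of all genes with a mean of at least 1 CPM. Ifnar1, a chain of the type I receptor, had 45.6 CPM there, within the 40.1 to 49.97 CPM of the other VTA libraries. Ifngr1, a chain of the interferon gamma receptor, had 65.0 CPM there, within 56.9 to 69.4 CPM.

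Among the genes of these lists with a VTA mean of at least 1 CPM, MOR-sired VTA 3 was highest for 5 of 10 transcription factors and feedback genes, 1 of 10 sensors and adaptors, 21 of 45 other interferon-induced genes and 6 of 17 class I genes. Over all genes with such a mean the share was 6.94%, and whether the lists differ was not tested. Cxcl10, a chemokine named here after its values were seen, had 7.67 CPM there and at most 1.27 CPM in the other VTA libraries.

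By edgeR 0 of 94 pathway genes were called in NAC and 0 of 102 in VTA, with 5 and 3 at an unadjusted p under 0.05. Over all genes 6.18% in NAC and 5.31% in VTA were under that p, so neither count stands above the background. The 4 of smallest p in each region are given as values. In NAC these were Irf3, Tyk2, Mov10 and Ifi30. Irf3, the factor that sensors activate first, had a log2 fold change of 0.37 ± 0.11 (SE), with an unadjusted edgeR p of 0.00379 and an adjusted p of 0.562. The kinase gene Tyk2 had 0.26 ± 0.09, the RNA helicase gene Mov10 0.46 ± 0.16 and Ifi30, a lysosomal thiol reductase gene, -0.23 ± 0.08 (log2 fold change and SE). In VTA the 4 were Ifi30 with 0.18 ± 0.07, Plscr1 with -0.97 ± 0.43, the class I gene RT1-CE10 with 1.19 ± 0.53 and Rig1 with 0.38 ± 0.18. Rat class I genes are near-identical copies, so single RT1 values are uncertain.

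Over the whole VTA table, 12182 genes had at least 5 CPM in MOR-sired VTA 3 and a median of at least 0.5 CPM in the others. Of the 30 with the largest ratio of that library to the next highest, 10 were genes of the set, with Mx1 and Rsad2 among the top 3. At most 37 of the 12182 genes could be of the set. The library was singled out by the level of these same genes, so their place near the top follows from that choice and carries no test. Another 3 were on the pathway lists (Oas1b, Uba7 and RT1-A1), and 0 were on the cell type marker lists. Among the 17 on no list were the class II genes Cd74, RT1-Ba, RT1-Da, RT1-Bb and RT1-Db1: Cd74, the class II invariant chain, had 136 CPM there and at most 38.1 CPM elsewhere in VTA.

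Marker sums of microglia, endothelial cells, astrocytes and blood in that library lay within the range of the other VTA libraries. The 10 microglial markers summed to 600 CPM there and to between 515 and 648 CPM in the other VTA libraries, with 2 of the 10 highest there and none at 0. The 6 endothelial markers summed to 213 CPM, against 182 to 260 CPM, with 0 highest there. The 5 astrocyte markers summed to 1383 CPM, against 1008 to 2119 CPM, and the 5 blood markers to 874 CPM, against 782 to 1800 CPM, with 0 highest there in either list. The 6 mural and fibroblast markers summed to 217 CPM, below the 238 to 352 CPM of the others. The 7 markers of T, NK and B cells summed to 1.34 CPM, against 0.152 to 1.06 CPM, with 3 of the 7 highest there and none at 0. These levels lie near the floor: no marker of the 7 exceeded 0.485 CPM there. In every other VTA library 6 of the 7 were under 0.5 CPM. The part of lymphocyte RNA in the excess was not tested.

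**Figure D5:**
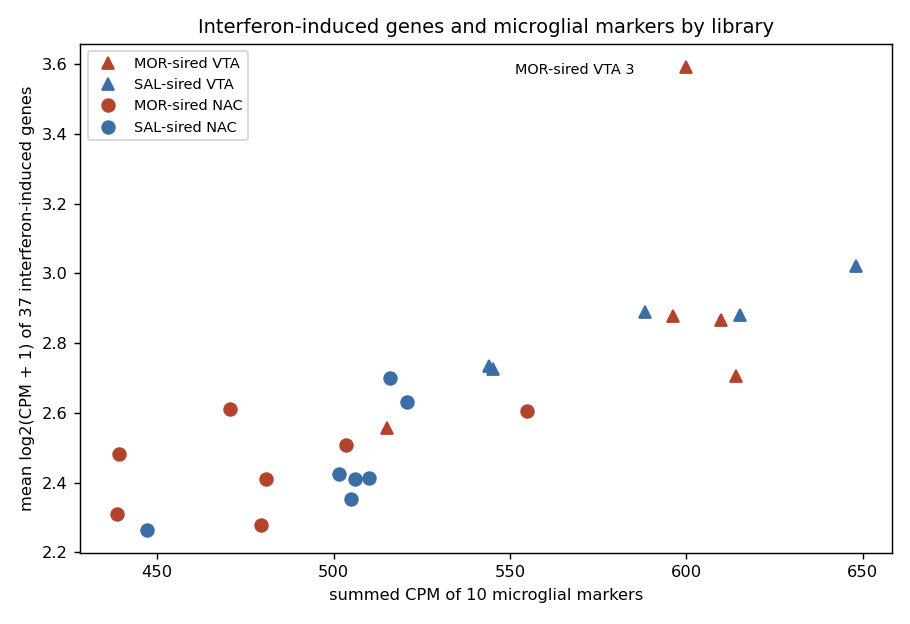
Module level (mean log2(CPM + 1) of 37 genes) against the summed CPM of 10 microglial markers in each library; triangles are VTA, circles NAC, red MOR-sired and blue SAL-sired. MOR-sired VTA 3 lies at 3.59 with a microglial sum of 600 CPM, inside the range of 515 to 648 CPM of the other VTA libraries.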

How the data were processed

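The authors deposited estimated counts per gene, 1 table per region, unnormalized between libraries and, per the file names, made by scaling transcript abundances (TPM) to each library's total. Per the submitters' processing notes, Trim Galore, kallisto and DESeq2 were used. Punches were bilateral and flash frozen, and libraries came from total RNA with a directional kit, per the labels' protocols. No source used here gives the genome build, annotation or strand setting.

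Estimated counts were rounded to whole numbers. Genes kept by filterByExpr were tested in each region with edgeR's quasi-likelihood test (TMM factors, intercept and sire group, Benjamini-Hochberg over all genes), and the sire effects were contrasted between regions over all 24 libraries with 4 group means. All tests were two-sided, and the call threshold was an adjusted p of 0.05. CPM is plain unless said to be TMM-scaled. Software was edgeR 4.0.16, DESeq2 1.42.0 and limma 3.58.1 in R 4.3.3. The fit was tested on simulated data. Members and lists were chosen with earlier results of these data known. Values are given in full for the 4 genes of smallest p per region, the 3 per region whose highest library stood out most, and the most abundant of each role. Estimated values allow no counting interval. Alternatives were other scalings, filters and tools, a replicate block, single libraries left out, and, chosen after seeing the data, covariates for library number (NAC) and total (VTA). Promoter windows and gene names are RefSeq's, assembly GRCr8.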

Additional observations from a re-analysis of the deposited data

Results flagged for a closer look

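In a group of 4 to 10 libraries, a value was singled out when its gap to the nearest other value took up more of the group's range than Dixon's 95% critical value (0.568 for 7 libraries, 0.710 for 5). Chance alone marks about 1 group in 20. Of 146 combinations of a group with a tested gene or with the module level, 20 were marked, 11 of them in MOR-sired VTA 3. All marks were of single genes: the module level was marked in no group, MOR-sired VTA included. The combinations share libraries, so the marks are not independent and that rate is no measure for their number.

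In MOR-sired VTA 3 the high values were those of Mx2 (42.1 CPM, next MOR-sired value 12.9), Isg15 (29.7, next 9.18), Lgals3bp (25.1, next 15.5), Irf7 (17.0, next 5.27) and Mx1 (12.6, next 0.965). The same library was high for Ifi44 (11.2 CPM, next 7.09), Oasl2 (11.1, next 4.79), Usp18 (9.57, next 4.06), Ifit3 (7.00, next 3.47), Gbp2 (6.50, next 3.59) and Rsad2 (5.31, next 1.60). SAL-sired VTA 1 was high for Irf9 (19.2 CPM, next 16.4) and Ifih1 (3.47, next 2.78).

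MOR-sired NAC libraries were marked for 4 genes, each in another library: Irf7 in MOR-sired NAC 6 (7.22 CPM, next 3.58), Isg15 in MOR-sired NAC 5 (8.36, next 6.23), Cmpk2 in MOR-sired NAC 1 (20.2, next 15.9), and Lgals3bp in MOR-sired NAC 4 at the low end (5.58, next 11.0). SAL-sired NAC 1 was high for Isg15 (10.6 CPM, next 6.21), Mx1 (2.53, next 1.00) and Rsad2 (1.86, next 0.737), all 3 of which were also marked in MOR-sired VTA 3.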

How the results depend on the processing

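The count of 0 called genes of the set held in NAC, in VTA and between regions under every alternative run. Over all genes edgeR called 0 in either region, against 27 in VTA and 4 in NAC with DESeq2 and 0 in VTA and 52 in NAC with limma-voom; between regions it called 0, and 7 without the 4 libraries with Xist. The VTA direction did not: 33 of 36 genes were fitted higher in MOR-sired VTA with all libraries, 15 to 35 with single libraries left out (15 without MOR-sired VTA 3), and 16 without the 4 libraries with Xist. In NAC 18 of 35 became 12 to 21 with single libraries left out. With total counts alone as scaling, 28 of 36 were higher in VTA; that scaling moved the median log2 fold change of all VTA genes to -0.09, against -0.0065 with TMM factors. Whether replicate numbers pair libraries is not given in the labels. Deviations of same-numbered libraries correlated at -0.328 to 0.166 in NAC and -0.160 to 0.161 in VTA. In these regions 0 of 7 and 2 of 5 numbers matched best with their own, which cannot exclude a pairing. With the replicate block 0 genes were called, and 17 of 35 in NAC and 32 of 36 in VTA were higher.

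Signs of the genes of the set changed in VTA for 19 of 36 without the 4 libraries with Xist, 18 without MOR-sired VTA 3, 5 with total counts and 2 with limma-voom. In NAC they changed for 9 of 35 with the library-number covariate, 7 with limma-voom and 10 without MOR-sired NAC 6. Among the genes with values given in full only, the changes were these (log2 fold changes; none was called, and the cause was not tested). In NAC with limma-voom quality weights: Irf7 -0.13, Ifit3 -0.13, Stat2 0.014, Eif2ak2 0.034 and Parp9 -0.036. With the library-number covariate in NAC: Irf7 -0.031, Ifit3 -0.021, Stat2 0.0099, Eif2ak2 0.0135 and Parp9 -0.036. Irf7 in NAC was -0.011 with no filter and -0.0325 with the replicate block. In VTA without the 4 libraries with Xist: Herc6 -0.15, Cmpk2 -0.061, Mx1 -1.15, Isg15 -0.28, Parp9 -0.0040 and Ifi27 0.097. In VTA with total counts: Cmpk2 -0.064, Stat2 -0.014 and Eif2ak2 -0.081.

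With single libraries left out, the values that crossed 0 among the genes given in full ran in VTA from -0.80 to 1.64 (Mx1), -0.13 to 0.59 (Isg15), -0.073 to 0.061 (Cmpk2), -0.056 to 0.10 (Eif2ak2) and -0.14 to 0.050 (Ifi27). In NAC they ran from -0.26 to 0.20 (Irf7), -0.25 to 0.18 (Rsad2), -0.062 to 0.23 (Isg15), -0.092 to 0.22 (Ifit3), -0.042 to 0.084 (Ifit2), -0.037 to 0.0995 (Parp9), -0.031 to 0.15 (Ifi27), -0.066 to 0.018 (Eif2ak2) and -0.084 to 0.019 (Stat2). Ifit3 in VTA stayed between 0.41 and 0.86 with single libraries left out, and was 0.23 without the 4 libraries with Xist. Genes such as Mx1, Rsad2 and Zbp1 lie near 1 CPM or below in most libraries, where estimates are least precise.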

Other observations

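Oas1b, a close copy of Oas1a, varied more in NAC than its neighbour and in another order. It ran from 0.919 to 8.15 CPM in MOR-sired NAC and from 1.14 to 9.33 CPM in SAL-sired NAC, while Oas1a ran from 0.961 to 2.89 CPM in MOR-sired and from 0.815 to 2.94 CPM in SAL-sired NAC. In SAL-sired NAC 3 Oas1b had 9.33 CPM, its highest value of that region, and Oas1a 0.815 CPM, its lowest. How the authors' estimates divided reads between the copies is not given.

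SAL-sired NAC 1, the NAC library with the highest Mx1, Rsad2 and Isg15, also had the highest NAC value of Cxcl10, 2.12 CPM, against at most 0.799 CPM in the other NAC libraries. These genes were chosen after their values were seen.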
